A study of Mus musculus with 6 samples.

Results

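The genes of interest, 38 in number, serve coenzyme Q, heme, iron-sulfur cluster and lipoate synthesis and iron handling, and they were followed in brown adipocytes grown in culture from U-IRX3ov and control mice. They were taken by gene symbol, and all 38 were found among the 46095 rows of the count table. Both groups were C57BL/6 mice aged 5 weeks. Cells of the stromal vascular fraction of their brown adipose tissue, which holds the preadipocytes, were induced to differentiate over 8 days. Insulin (5 µg/mL), dexamethasone (1 µM), rosiglitazone (1 µM), the thyroid hormone T3 (1 µM) and IBMX (0.5 mM) were given for 2 days, and insulin, rosiglitazone and T3 for the other 6 days. RNA was sequenced from 3 U-IRX3ov and 3 control libraries. U-IRX3ov names a genotype with IRX3 overexpressed, but its promoter and the alleles of the control mice are not stated in the labels. The labels leave unsaid if each library was a mouse or culture of its own, so p-values measure the spread between these 6 libraries, which may be technical.

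Coenzyme Q is the lipid that carries electrons between the complexes of the respiratory chain. Heme and iron-sulfur clusters are the iron cofactors that those complexes use to pass electrons on, and lipoate is the swinging arm of the pyruvate and oxoglutarate dehydrogenases, built by an enzyme that itself needs iron-sulfur clusters. All of these are made wholly or partly inside mitochondria, and brown adipocytes, whose mitochondria burn fuel for heat, have a high demand for them. Iron enters cells through the transferrin receptor (Tfrc), is stored in ferritin (the chains Fth1 and Ftl1) and leaves through ferroportin (Slc40a1). The messages of these iron genes carry iron-responsive elements, short hairpins bound by the iron regulatory proteins when iron is scarce. Binding at the 3′ end of the Tfrc message protects it from decay, while binding at the 5′ end of the ferritin and ferroportin messages blocks their translation.

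The hairpins were looked for in the untranslated regions (UTRs) of coding transcripts, as a C, 5 bases of any kind, the loop letters CAGTG with 1 further base, and 5 bases that pair with the 5 before the loop. At most 1 G-T pair was allowed, and the last loop base could not be G. Those of Tfrc, Fth1, Ftl1 and Slc40a1 are shown, a choice made after the values of these genes were seen. The part of the hairpins in those values was not tested. By GENCODE's gene models for GRCm38 (mm10), 49 of 21901 coding genes held such a match, or 0.224%. Among the 38 genes 5 did. Tfrc had 4 matches in its 3′ UTR, Fth1, Ftl1 and Slc40a1 had 1 each in the 5′ UTR, and Bola3 had 1 in a 3′ UTR. The match of Bola3, a gene called higher, is not printed. A match is a pattern of letters only, and the search was made on the transcript strand. The capitals below mark the 6-base loop, and coordinates are of GRCm38.
Tfrc, chr16:32631220-32631247, plus strand: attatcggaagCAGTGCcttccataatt
Tfrc, chr16:32631599-32631626, plus strand: attatcgggagCAGTGTcttccataatg
Tfrc, chr16:32631664-32631691, plus strand: tatatcggagaCAGTGAtctccatatgt
Tfrc, chr16:32631711-32631738, plus strand: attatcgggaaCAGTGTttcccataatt
Fth1, chr19:9982733-9982760, plus strand: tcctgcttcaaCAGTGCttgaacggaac
Ftl1, chr7:45459779-45459806, minus strand: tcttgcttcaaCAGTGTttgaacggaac
Slc40a1, chr1:45925465-45925492, minus strand: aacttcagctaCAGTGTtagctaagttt

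Libraries held 20094799 to 26755870 counts. Values are CPM, counts scaled to a common library size with TMM, a scaling that assumes most genes do not differ, and a gene is called higher or lower where edgeR's quasi-likelihood test gave an adjusted p under 0.05 over all 14757 genes tested. Irx3 itself, which checks the genotype, had 163, 123 and 114 counts in U-IRX3ov libraries and 131, 142 and 138 in control libraries, with a log2 fold change of 0.27 ± 0.13 (SE) that did not pass (edgeR adjusted p = 0.112). Whether reads of the overexpressed copy would fall under this symbol is not known. The cultures differed in markers of cell types. All 10 brown adipocyte markers were called higher (median log2 fold change 1.23), as were 8 of 10 general adipocyte markers (median 0.18), while 9 of 10 preadipocyte and fibroblast markers were called lower (median -0.72). All 15 macrophage and leukocyte markers were called lower (median -1.31), their summed level lay between 163 and 242 CPM in U-IRX3ov libraries and between 503 and 616 CPM in control libraries, and none of the defining markers Adgre1, Csf1r, Mrc1, Ptprc and Cd68 was at 0. Of 8 endothelial markers 5 were called higher. Of 10 erythroid markers, which bear on the heme genes, 6 had 0 counts in every library, among them Hbb-bs and Hba-a1, and none reached the level needed for testing. In a bulk culture, fewer cells of a type and less RNA per cell cannot be told apart.

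Most of the 38 genes were expressed more in U-IRX3ov than in control cells. All 38 passed the filter on low counts, 27 were called higher, 3 were called lower and 8 did not pass. Of all genes tested 41.3% were called in either direction, 20.2% higher and 21.1% lower. The members' log2 fold changes ran from -0.53 (Slc40a1) to 0.87 (Tfrc), with a median of 0.36 against -0.0047 over all genes tested. In CPM the 3 U-IRX3ov and 3 control libraries did not overlap for 32 of the 38, while 50.8% of all genes tested did not overlap. Scaled by library totals alone, without TMM, the median over all genes was -0.10 and that of the members 0.26, with 21 called higher and 7 lower. Of all genes tested, 13.1% were then called higher and 31.6% lower. In that scaling Coq4, Uros, Fech, Hmox2, Nfu1 and Lipt2 no longer passed, and Coq10b, Cpox, Hmox1 and Fdxr were called lower. Tested against a 1.2-fold change (edgeR's glmTreat), 17 members were called higher and 0 lower, beside 7.6% and 10.1% of all genes tested.

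The pathways differed in their counts, which stand beside 20.2% higher and 21.1% lower over all genes tested. The 11 coenzyme Q genes had 8 higher and 0 lower (median log2 fold change 0.42), the 7 heme synthesis genes 5 and 0 (median 0.30), the 10 iron-sulfur genes 8 and 0 (median 0.30) and the 3 lipoate genes 3 and 0 (median 0.38). The 2 heme oxygenases had 1 higher, and the 5 iron handling genes had 2 higher and 3 lower, holding all the members called lower. Whether one pathway differed from another was not tested, and all rest on the same 6 libraries. The pathway medians of the single U-IRX3ov libraries, taken against the control mean, ran from 0.31 to 0.49 for coenzyme Q, from 0.20 to 0.38 for heme synthesis, from 0.29 to 0.32 for iron-sulfur genes and from 0.29 to 0.48 for lipoate genes. They ran from -0.17 to -0.07 for iron handling. As 3 of its 5 genes were lower without overlap of the groups, that median had to be negative in each U-IRX3ov library. Its sign thus adds nothing to those calls.

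**Figure D1:**
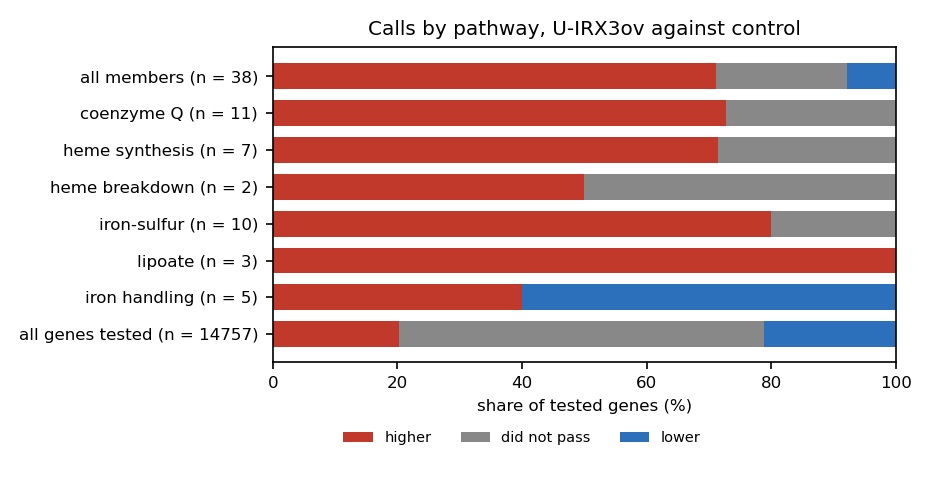
Share of tested genes called higher, called lower or not passing, for all 38 members, each pathway and all 14757 genes tested (horizontal axis in percent, n in brackets). Among the 6 pathways, blue segments for lower calls appear for iron handling, with 3 of its 5 genes, and for no other.

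**Figure D2:**
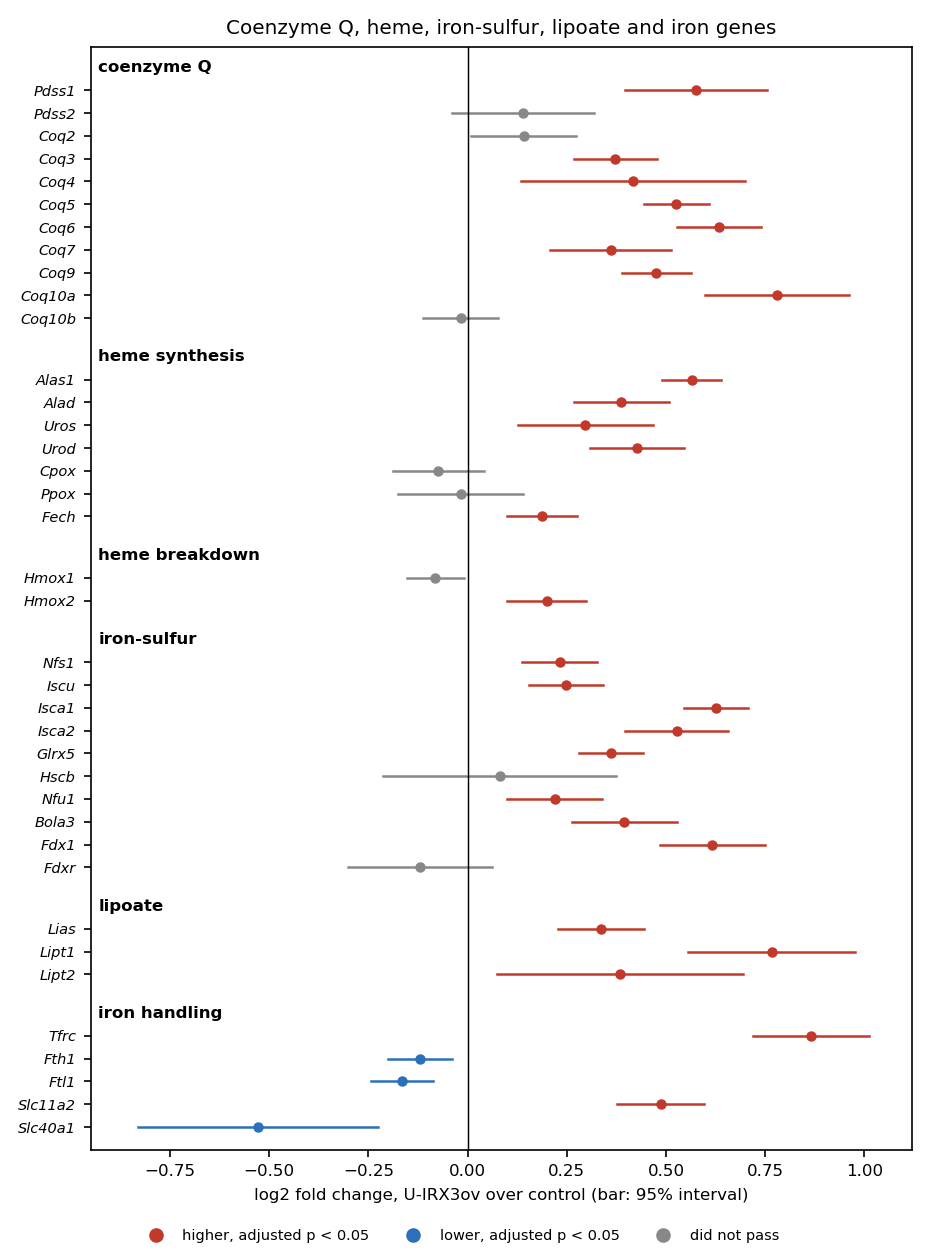
Log2 fold change of each of the 38 members, U-IRX3ov over control (horizontal axis), grouped by pathway, with bars for the 95% interval from the edgeR fit of 3 against 3 libraries. Tfrc lies farthest right at 0.87 and Slc40a1 farthest left at -0.53.

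Levels per kilobase of annotated exon covered a wide range. The length used joins the exons of all annotated transcripts and can exceed that of a single transcript, so genes compare only roughly. For Fth1 it was 3469 bases, while a transcript with the hairpin above has 1494, and for Slc40a1 these were 9000 and 3370. The order below is that of this scale. Ferritin stood at the top, with Ftl1 at 930 CPM per kb in U-IRX3ov and 1043 in control cells and Fth1 at 313 in U-IRX3ov and 340 in control cells. Hmox1, the inducible heme oxygenase, followed at 247 in U-IRX3ov and 261 in control cells, and Alas1, the first enzyme of heme synthesis, at 81.5 in U-IRX3ov and 55.1 in control cells. Iscu, Coq5 and Coq9 lay between 43.5 and 49.4 CPM per kb in U-IRX3ov cells and between 31.2 and 39.7 in control cells. Slc40a1 was the lowest at 0.541 in U-IRX3ov and 0.774 in control cells. Among the members the coefficient of variation between U-IRX3ov libraries ran from 0.224% (Coq6) to 21.1% (Coq4).

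In coenzyme Q synthesis the 2 subunits of the enzyme that builds the isoprenoid tail are described first. Pdss1 had 17.5, 19.1 and 18.1 CPM in U-IRX3ov libraries and 12.4, 12.8 and 11.5 CPM in control libraries. The groups did not overlap, and Pdss1 rose by a log2 fold change of 0.58 ± 0.09 (edgeR adjusted p = 4.17e-06). Its partner Pdss2 had 17.996, 16.1 and 16.6 CPM in U-IRX3ov and 15.9, 14.0 and 16.3 CPM in control libraries. These overlapped, and the log2 fold change of 0.14 ± 0.09 did not pass (adjusted p = 0.211, 95% interval -0.039 to 0.32). Coq2, which joins the tail to the ring, likewise did not pass (0.14 ± 0.06, adjusted p = 0.0796), though its U-IRX3ov libraries (30.1 to 32.3 CPM) all lay above control (26.9 to 29.3 CPM). A stretch of 1006 bases of its transcript is nearly identical to the annotated gene Gm6728, so its counts are uncertain.

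The enzymes that modify the ring were all called higher. Coq6, a ring hydroxylase, had 64.5, 64.8 and 64.6 CPM in U-IRX3ov and 41.2, 42.5 and 41.3 CPM in control libraries, with a 1.55-fold rise (log2 0.63 ± 0.05, edgeR adjusted p = 6.48e-11). Coq5, the C-methyltransferase, had 145, 152 and 152 CPM in U-IRX3ov and 104, 101 and 107 CPM in control libraries (log2 0.53 ± 0.04, adjusted p = 1.46e-11). Every U-IRX3ov library was above every control library for both genes. The O-methyltransferase Coq3 (0.37 ± 0.05) and the hydroxylase Coq7 (0.36 ± 0.07) rose as well, and so did Coq9, a lipid-binding partner of Coq7, at 128 to 137 CPM in U-IRX3ov and 91.6 to 98.7 CPM in control libraries (0.48 ± 0.04). Coq4, a member of the same enzyme assembly, had 7.42, 10.6 and 7.59 CPM in U-IRX3ov and 6.90, 5.92 and 6.27 CPM in control libraries. One library, U-IRX3ov 2, stood above the rest, and the call (0.42 ± 0.14, adjusted p = 0.0156) was lost without it (0.24, adjusted p = 0.186) and without control 2 (adjusted p = 0.0633). Coq4 also shares 921 bases of exon with Trub2 on the other strand.

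Coq10a and Coq10b are paralogs that bind coenzyme Q and are needed for its function in respiration. Coq10a had 18.8, 22.2 and 20.5 CPM in U-IRX3ov and 11.2, 12.4 and 12.1 CPM in control libraries, a 1.72-fold rise (log2 0.78 ± 0.09, edgeR adjusted p = 3.30e-08), the largest of the coenzyme Q members. Coq10b had 75.4, 73.8 and 79.4 CPM in U-IRX3ov and 76.3, 75.2 and 79.7 CPM in control libraries. These overlapped, and its log2 fold change of -0.017 ± 0.046 did not pass (adjusted p = 0.799, 95% interval -0.11 to 0.078). The 2 intervals do not meet. A stretch of 719 bases of the Coq10b transcript is nearly identical to the annotated gene Gm4899, so the counts of Coq10b and the ratio below are uncertain. Per kilobase of exon, the ratio of Coq10a to Coq10b was 0.503 ± 0.051 in U-IRX3ov and 0.289 ± 0.017 in control libraries (SD, n = 3 each). Its level also depends on the exon lengths used, which are the same for both groups.

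Of 7 other genes of this pathway that are not members, 4 were called higher and 0 lower (median log2 fold change 0.18), beside 20.2% and 21.1% of all genes tested. The atypical kinase Coq8a, listed under its older symbol Adck3, had 58.5, 61.2 and 62.1 CPM in U-IRX3ov and 22.0, 20.4 and 18.8 CPM in control libraries. Its groups lay far apart, and its log2 fold change of 1.57 ± 0.06 (edgeR adjusted p = 6.29e-17) was above that of all 38 members. Its paralog Coq8b, under Adck4, had 0.21 ± 0.07 (adjusted p = 0.0245). Hmgcs1, at the head of the mevalonate pathway that supplies the tail, rose by 0.35 ± 0.04, and Fdft1, which draws mevalonate products into sterols, by 0.18 ± 0.06.

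**Figure D3:**
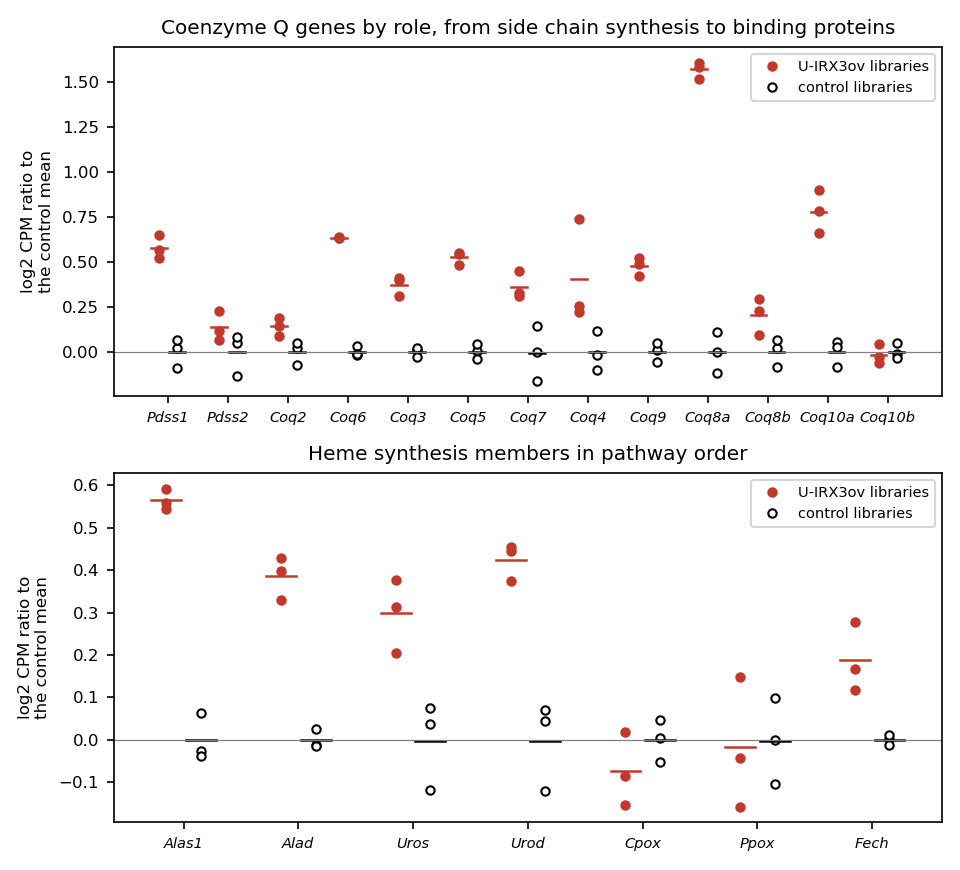
Log2 ratio of each library's CPM to the control mean (vertical axis) for coenzyme Q genes (upper panel) and the member heme synthesis enzymes in pathway order (lower panel), with U-IRX3ov libraries as filled red and control libraries as open points and a line at each mean. Coq8a stands highest in the upper panel, and in the lower panel the points of Cpox and Ppox overlap between groups while those of the other enzymes do not.

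Heme synthesis rose at its early steps and at its last one. Alas1, the rate-limiting enzyme of the pathway outside red cells, had 501, 496 and 513 CPM in U-IRX3ov and 334, 331 and 356 CPM in control libraries. No library overlapped, and the rise was 1.48-fold (log2 0.57 ± 0.04, edgeR adjusted p = 4.92e-13). Alas2, the red cell form, had 0 counts in every library. Of the enzymes that work in the cytosol, the members rose, with Alad (45.1 ± 1.56 CPM in U-IRX3ov and 34.5 ± 0.546 CPM in control libraries, log2 0.39 ± 0.06), Uros (0.30 ± 0.08) and Urod (0.43 ± 0.06).

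The 2 oxidases that come next did not pass. Cpox, in the space between the mitochondrial membranes, had 47.8, 53.8 and 50.2 CPM in U-IRX3ov and 53.3, 54.9 and 51.3 CPM in control libraries (log2 -0.074 ± 0.056, edgeR adjusted p = 0.314, 95% interval -0.19 to 0.042). Ppox, on the inner membrane, had 23.6, 25.5 and 29.1 CPM in U-IRX3ov and 26.3, 24.4 and 28.1 CPM in control libraries (-0.017 ± 0.076, adjusted p = 0.876, interval -0.17 to 0.14). Both sets of libraries overlapped, and 791 bases of Ppox exon are shared with B4galt3 on the other strand. Fech, which inserts the iron, had 111, 108 and 120 CPM in U-IRX3ov and 99.3, 100.0 and 98.4 CPM in control libraries, without overlap and with a small rise (0.19 ± 0.04, adjusted p = 7.38e-04). On library totals alone Fech no longer passed (adjusted p = 0.0776), and its transcript has stretches nearly identical to 15 other annotated genes.

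Heme breakdown showed 1 small rise. Hmox2, the constitutive heme oxygenase, had 72.9, 73.2 and 70.6 CPM in U-IRX3ov and 60.6, 61.9 and 66.3 CPM in control libraries (log2 0.20 ± 0.05, edgeR adjusted p = 0.00142). It shares 892 bases of exon with Cdip1 on the other strand, which was itself called higher (0.50 ± 0.04), and the part of Cdip1 reads in the counts of Hmox2 was not tested. Hmox1, the form induced by heme and oxidative stress and abundant in macrophages, had 423, 428 and 446 CPM in U-IRX3ov and 446, 463 and 463 CPM in control libraries. The highest U-IRX3ov library lay just under the lowest control library, and the log2 fold change of -0.081 ± 0.035 did not pass (adjusted p = 0.0661), though it did without U-IRX3ov 3 (-0.10, adjusted p = 0.0382), with upper-quartile scaling (adjusted p = 0.0271) and on library totals (adjusted p = 1.13e-04). The 15 macrophage and leukocyte markers, all lower in the same libraries, had a median of -1.31, and their part in the value of Hmox1 was not tested.

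Of 18 tested genes of heme transport, regulation and use outside the member set, 9 were called higher and 0 lower (median 0.15). The shares over all genes tested were 20.2% higher and 21.1% lower. Clpx, a mitochondrial unfoldase that acts on the ALAS enzyme, rose, with 149 ± 7.18 CPM in U-IRX3ov and 96.3 ± 2.06 CPM in control libraries (log2 0.63 ± 0.04). Tmem14c, which is needed to bring protoporphyrinogen into mitochondria, rose by 0.54 ± 0.04, the porphyrin-linked transporter Abcb6 by 0.53 ± 0.05, and the mitochondrial glutathione carrier Slc25a39 by 0.35 ± 0.04.

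In iron-sulfur cluster assembly 8 of 10 members rose, and the smallest p was that of Isca1. Nfs1, the desulfurase that supplies sulfur, had 81.2, 77.4 and 76.8 CPM in U-IRX3ov and 66.1, 65.2 and 69.4 CPM in control libraries (log2 0.23 ± 0.05, edgeR adjusted p = 1.76e-04). Iscu, the scaffold on which clusters form, had 0.25 ± 0.05, and the cochaperone Hscb, which hands the cluster on, did not pass at 4.91 to 5.39 CPM in U-IRX3ov and 4.45 to 5.31 CPM in control libraries (0.081 ± 0.143, adjusted p = 0.683). Hspa9, the chaperone that works with Hscb and not a member, rose by 0.50 ± 0.03. Isca1 and Isca2, which act together in making the larger clusters, were both called higher. Isca1 had 204, 215 and 215 CPM in U-IRX3ov and 140, 138 and 132 CPM in control libraries (0.63 ± 0.04, adjusted p = 3.18e-13), and Isca2 had 49.0, 53.7 and 53.1 CPM in U-IRX3ov and 34.4, 34.2 and 39.5 CPM in control libraries (0.53 ± 0.06). A stretch of 1914 bases of the Isca1 transcript is nearly identical to the annotated gene AK157302.

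Glrx5, a glutaredoxin that carries clusters, rose by 0.36 ± 0.04 without overlap of its groups (128 to 131 CPM in U-IRX3ov and 98.3 to 103 CPM in control libraries). Bola3 (0.40 ± 0.06) and Nfu1 (0.22 ± 0.06), which deliver clusters to lipoate synthase and respiratory complexes, rose as well. The Nfu1 transcript has a stretch of 771 bases nearly identical to the annotated gene Gm7859. Electrons for cluster assembly come from a ferredoxin and its reductase. The ferredoxin Fdx1 had 52.5, 58.5 and 63.0 CPM in U-IRX3ov and 38.5, 39.3 and 35.4 CPM in control libraries, a 1.53-fold rise (log2 0.62 ± 0.06, edgeR adjusted p = 1.22e-08). Its reductase Fdxr had 14.8, 16.1 and 15.03 CPM in U-IRX3ov and 15.01, 17.99 and 16.8 CPM in control libraries, with overlap and a log2 fold change of -0.12 ± 0.09 that did not pass (adjusted p = 0.294, 95% interval -0.30 to 0.061). The other ferredoxin, Fdx1l, was not tested, as its counts lay between 1 and 13. Which ferredoxin serves cluster assembly cannot be read from these counts. The rise of Fdx1 is therefore not taken as a rise in electron supply for assembly.

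Other genes of the mitochondrial branch had 7 of 14 tested called higher and 1 lower (median 0.31), with Cisd3 (0.71 ± 0.08) and Cisd1 (0.40 ± 0.05) among those with the smallest p. The lower gene, named after its value was seen, was the mitochondrial iron importer Slc25a37 (-0.16 ± 0.06), whose paralog Slc25a28, named likewise, was higher (0.26 ± 0.06). The cytosolic branch, which serves nuclear and cytosolic proteins, had 4 of 11 higher and 2 lower (median 0.12). Both branches stand beside shares of 20.2% higher and 21.1% lower over all genes tested. Ciao1 rose by 0.30 ± 0.06, Fam96a by 0.28 ± 0.05, Ciapin1 by 0.27 ± 0.06 and Narfl by 0.26 ± 0.06. The 2 lower genes, Nubp1 (-0.28 ± 0.08) and Bola2 (-0.24 ± 0.09), were named after their values were seen.

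All 3 lipoate genes were called higher, not all with the same firmness. Lipt1, which places lipoate on the dehydrogenases, had 14.1, 15.3 and 17.2 CPM in U-IRX3ov and 9.35, 8.404 and 9.57 CPM in control libraries, a 1.70-fold rise (log2 0.77 ± 0.10, edgeR adjusted p = 5.74e-07). It shares 262 bases of exon with Mitd1 on the other strand, whose own log2 fold change was 0.074 ± 0.269 (adjusted p = 0.857). Lias, the synthase, had 61.6 to 65.1 CPM in U-IRX3ov and 47.6 to 52.0 CPM in control libraries (0.34 ± 0.05, adjusted p = 6.50e-06). Lipt2, which makes the first transfer, had 5.31, 5.03 and 5.73 CPM in U-IRX3ov and 3.58, 4.16 and 4.56 CPM in control libraries. Its groups did not overlap, but the call (0.38 ± 0.15, adjusted p = 0.0421) was lost under DESeq2 (adjusted p = 0.0896) and without any single library other than control 3 (adjusted p = 0.0505 to 0.180). Of 9 genes of lipoate precursors and lipoylated complexes 8 were called higher and 0 lower (median 0.54), beside 20.2% and 21.1% of all genes tested. The smallest p was that of Dlst, the lipoylated subunit of the oxoglutarate dehydrogenase, at 630 ± 12.7 CPM in U-IRX3ov and 411 ± 5.62 CPM in control libraries (0.61 ± 0.03), followed by that of Dld (0.58 ± 0.03), Dlat (0.56 ± 0.04) and Dbt (0.54 ± 0.04). The largest rise of the list, named after its value was seen, was that of Pdhx, a pyruvate dehydrogenase subunit (0.84 ± 0.22, edgeR adjusted p = 0.039).

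Of the 5 iron handling members, Tfrc and Slc11a2 were higher and Fth1, Ftl1 and Slc40a1 were lower. Tfrc had 223, 240 and 270 CPM in U-IRX3ov and 137, 138 and 127 CPM in control libraries. The groups lay well apart, and the 1.82-fold rise was the largest of the 38 genes (log2 0.87 ± 0.07, edgeR adjusted p = 1.35e-06). Its 3′ UTR holds the 4 hairpins printed above. Slc11a2, the transporter that moves iron out of endosomes, had 57.7, 57.5 and 60.4 CPM in U-IRX3ov and 41.6, 42.1 and 41.6 CPM in control libraries, also without overlap (0.49 ± 0.05, adjusted p = 1.79e-08). No match to the pattern above was found in its annotated UTRs, which says nothing of hairpins of another form.

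The ferritin chains fell slightly. Fth1, the heavy chain that oxidises iron, had 1123, 1027 and 1108 CPM in U-IRX3ov and 1181, 1125 and 1233 CPM in control libraries. The highest U-IRX3ov library lay just under the lowest control library, and the log2 fold change of -0.12 ± 0.04 (edgeR adjusted p = 0.0155) no longer passed without U-IRX3ov 2 (-0.080, adjusted p = 0.149) or without control 3 (adjusted p = 0.0762). Ftl1, the light chain, had 1214, 1242 and 1281 CPM in U-IRX3ov and 1409, 1318 and 1464 CPM in control libraries (-0.17 ± 0.04, adjusted p = 7.46e-04). Its transcript is nearly identical over stretches to 7 other annotated genes, among them Ftl1-ps1 over 910 bases. Per kilobase, Fth1 stood at 0.337 ± 0.019 of Ftl1 in U-IRX3ov and 0.326 ± 0.003 in control libraries (SD, n = 3 each), ranges that overlapped. Tfrc stood at 0.126 ± 0.013 of Fth1 in U-IRX3ov and 0.0638 ± 0.0057 in control libraries. The exon lengths used, 3469 bases for Fth1, 1340 for Ftl1 and 6185 for Tfrc, largely set the size of these ratios. They compare the groups and do not give the proportions of the messages. Before division by length, mean CPM was 1086 for Fth1 and 1246 for Ftl1 in U-IRX3ov. In control libraries it was 1180 for Fth1 and 1397 for Ftl1.

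Ferroportin fell most. Slc40a1 had 104, 106 and 100 counts in U-IRX3ov libraries and 162, 198 and 200 counts in control libraries, or 3.999, 5.44 and 5.16 CPM in U-IRX3ov against 5.92, 7.56 and 7.42 CPM in control libraries. The groups did not overlap, and the log2 fold change was -0.53 ± 0.15 (edgeR adjusted p = 0.00482). The call was lost without U-IRX3ov 1 (-0.39, adjusted p = 0.0564). Slc40a1 is abundant in macrophages, and the 15 macrophage and leukocyte markers fell in the same libraries with a median log2 fold change of -1.31, their summed level being 163 to 242 CPM in U-IRX3ov and 503 to 616 CPM in control libraries. Their part in the falls of Slc40a1, Fth1 and Ftl1 was not tested.

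**Figure D4:**
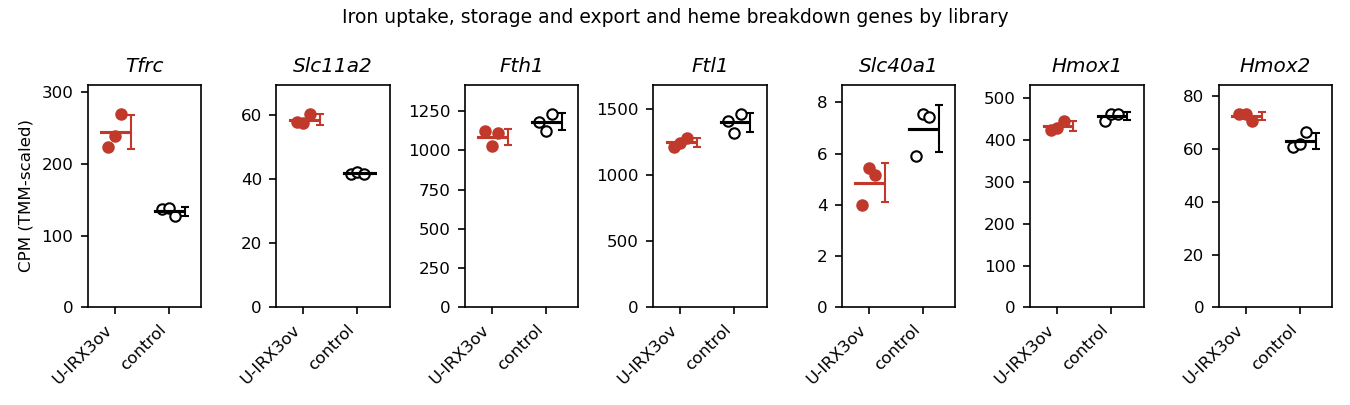
TMM-scaled CPM (vertical axes, each from 0) in the 3 U-IRX3ov libraries (filled red) and 3 control libraries (open black) for the iron handling genes and heme oxygenases, with a line at the mean and a bar for the SD. Tfrc and Slc11a2 are higher in U-IRX3ov, Fth1, Ftl1 and Slc40a1 are lower, and Hmox1 did not pass.

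Among 20 tested genes of iron handling outside the member set, 4 were called higher and 10 lower (median log2 fold change -0.088). Over all genes tested the shares were 20.2% higher and 21.1% lower. Lcn2, which binds iron-carrying siderophores, had 21.1 ± 0.27 CPM in U-IRX3ov and 74.4 ± 4.28 CPM in control libraries (log2 -1.82 ± 0.06). The iron carrier transferrin, Trf, fell to 109 ± 8.21 CPM in U-IRX3ov, against 174 ± 6.50 CPM in control libraries (-0.68 ± 0.05). The metalloreductase Steap4 rose (0.67 ± 0.04), while its relatives Steap1 (-0.34 ± 0.11), Steap2 (-0.16 ± 0.06) and Steap3 (-0.55 ± 0.08), named after their values were seen, fell. So did the metal importers Slc39a14 (-0.27 ± 0.05) and Slc39a8 (-0.53 ± 0.15), named likewise. Aco1, the cytosolic aconitase that becomes iron regulatory protein 1 when it lacks its cluster, had 369, 382 and 362 CPM in U-IRX3ov and 279, 282 and 278 CPM in control libraries (0.41 ± 0.04, edgeR adjusted p = 2.19e-10). Ireb2, which encodes the second iron regulatory protein and was named after its value was seen, did not pass (0.094 ± 0.040, adjusted p = 0.0600). Hamp, the hormone hepcidin that removes ferroportin, and the mitochondrial ferritin Ftmt had 0 counts in every library.

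Promoter windows of RefSeq (GRCm38.p6), 250 bases before to 50 after a start, were held for 31 of the 38 genes. The letters GCGCA and GCGC with 1 base of any kind between them, bound by NRF1, a regulator of nuclear genes for mitochondria, were searched on both strands and occurred for 5 of the 31 (16.1%), which were Alas1, Coq3, Isca1, Nfu1 and Uros, and for 5.19% of all genes with a window. The letters TGACNNNGC of the antioxidant response element occurred for 3 of the 31 (9.68%) and for 14.0% of all genes. The letters TNAAGGTCA, bound by estrogen-related receptors, occurred for 0 of the 31 and for 1.43% of all genes. The genes with a window numbered 27025, more than the 14757 tested, so they include genes not tested here. Shares among genes at levels like those of the members were not taken. A match says only that the letters are there. The NRF1 letters in the Uros promoter are shown in capitals, as they stand before an early heme enzyme that was called higher. They read as the reverse complement of the motif, begin 47 bases before the start and overlap no match to the other motifs.
Uros, chr7:133709308-133709367, minus strand: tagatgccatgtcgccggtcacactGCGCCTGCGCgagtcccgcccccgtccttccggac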

How the data were processed

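RNA-seq was made from 6 libraries of brown adipocytes induced in culture, 3 U-IRX3ov and 3 control, grouped by their labels. The authors deposited raw read counts per gene symbol, with no normalization. Reads were aligned with HISAT2 2.0.4 to mm10, per the submitters' processing notes, while for the counting tool, annotation and strand setting nothing was given in these sources. Without strand, reads of overlapping genes cannot be told apart: 16 of the 38 genes overlap another gene's exons and 12 have near-identical stretches elsewhere (at least 150 bases at 95% identity).

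From the counts, edgeR 4.0.16 (R 4.3.3) with TMM scaling and filterByExpr kept 14757 of 46095 rows, with at least 99.92% of each library's counts. Its robust quasi-likelihood test compared U-IRX3ov with control libraries, with Benjamini-Hochberg adjustment over all genes tested and a threshold of 0.05. Errors beside log2 fold changes are standard errors from that fit, those beside CPM are SD of 3 libraries, and intervals are at 95%. CPM per kilobase used the union of GENCODE exons of GRCm38. Totals of 20094799 to 26755870 counts set the precision. An exact test of 3 against 3 libraries cannot go below p = 0.1 and was not used. Chi-square per degree of freedom between libraries of a group was 2.92 to 4.91, so none was a copy of another.

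The alternatives were other scalings, filters and thresholds, DESeq2 1.42.0, limma 3.58.1 (voom), glmTreat, a replicate block and leaving out each library. The test was also run on simulated counts, with an outcome not reported here. Such counts cannot show if the libraries are independent. The text names all 38 members, up to 4 other genes with the smallest p in each list of further pathway genes, the defining cell markers, and a few genes said to be chosen after their values were seen. Some genes at 0 or under the filter were not tested. Single values of some other pathway genes are not reported here. The members and lists were chosen with earlier results of these data known.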

Additional observations from a re-analysis of the deposited data

How the results depend on the processing

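Of the 30 members called, 17 were called under all 17 alternatives and 13 lost the call under some. Members called higher numbered 17 against a 1.2-fold change (glmTreat), with 3 in heme synthesis, 0 in heme breakdown, 5 in iron-sulfur and 1 in lipoate genes, and members called lower numbered 0, iron handling included. Of all genes tested 7.6% were then higher and 10.1% lower. On library totals without TMM the members' median was 0.26, heme synthesis had 3 higher and heme breakdown 0, while 7 members were called lower, with 1 each in coenzyme Q, heme synthesis, heme breakdown and iron-sulfur genes. In that scaling 13.1% of all genes tested were higher and 31.6% lower. There the value turned negative for the median log2 fold change, heme breakdown, at -0.0375, and for Hscb, which did not pass, at -0.015. With upper-quartile scaling 1 heme breakdown gene was lower, beside 22.5% of all genes tested. The scaling itself differs in these settings, and no other cause was tested.

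With 1 library left out at a time, 25 to 27 members were higher and 2 to 4 lower, and the members' median was 0.33 to 0.37. Over all genes tested, 17.3 to 18.5% were then higher and 18.5 to 19.4% lower. By pathway, 7 to 8 coenzyme Q and 2 to 3 lipoate genes were higher, 2 to 3 iron handling genes were lower, and 0 to 1 heme breakdown genes were lower. The replicate block gave 27 members higher and 3 lower, as without it. Pairing was looked for in each library's deviations from its group's mean log2 CPM. Deviations of same-numbered libraries correlated at 0.00984, 0.0837 and 0.0534. Each control library correlated best with its own number, while U-IRX3ov 1 correlated best with control 3 (0.0185). These values do not settle if the numbers are pairs. The labels name no pairs, and the main test took none. Over all genes tested the block gave 3014 higher (20.4%) and 3159 lower (21.4%). Counts of 95 to 207 in a library for Coq4, Hscb, Lipt2 and Slc40a1 limit what can be detected for these genes.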
